A study of Mus musculus with 18 samples.

Results

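Netrins are secreted guidance cues that growing axons and migrating neurons read through membrane receptors. Binding of netrin-1 to Dcc or its relative Neo1 is known mainly for attraction, while receptors of the Unc5 family, alone or in a complex with Dcc, are known for repulsion. Dscam is an adhesion molecule that can also bind netrin-1, and Draxin is a secreted protein that binds both Dcc and netrin-1. The 9 genes for these proteins were described here: the ligands Ntn1 and Draxin, and the receptors Dcc, Neo1, Dscam, Unc5a, Unc5b, Unc5c and Unc5d. They were chosen by their symbols among the 55335 genes in the files, and each symbol matched 1 gene.

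The study profiled single nuclei from the forebrain of embryonic day 14 mice of the MYT1L S710fsX strain, which carries a frameshift in Myt1l, a zinc finger transcription factor gene of postmitotic neurons. The 9 embryos came from crosses between heterozygotes and were wild type (WT, n = 3), heterozygous for the mutation (Het, n = 3) or homozygous (KO, n = 3). Each frozen forebrain was prepared as fixed nuclei with a split-pool barcoding kit and sequenced in 2 runs, which were summed for each animal. Genotypes were taken from the sample titles: the separate genotype tag reads WT for the 6 libraries of run 1 whose titles say Het or KO, while titles and tags match in all 9 libraries of run 2, so values of run 2 alone are given beside the main calls. The allele is germline, so every cell of a KO embryo carried it, and homozygotes do not survive after birth. The embryos came from several litters and both sexes, and the sources used here do not tie embryos to litters.

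After filtering, 194371 of 261143 barcodes were kept, with a median of 2518 unique molecular identifiers (UMIs) and 1536 genes, and between 14780 and 26079 nuclei per animal. Libraries of the same animal shared 155 barcodes and those of different animals shared 1710. Nuclei were clustered without the 9 genes and without genes overlapping them, and clusters were named from marker lists, so that a name ends in "-like". Of 10 named classes, 7 held at least 20 nuclei in every animal and were tested. The unnamed clusters held 56454 nuclei (29.0%) and belong to no class. Some clusters were unevenly spread over the animals. All 724 diencephalic neuron-like nuclei came from Het 1, where they were 3.04% of its nuclei. Of the 102 mural and fibroblast-like nuclei, 69 came from KO 1, 32 from Het 1 and 1 from Het 2. The unnamed cluster 2 was 4.28% of nuclei in WT 1, 7.42% in Het 1 and 5.07% in KO 1, each a larger share than in any other animal. In KO 1, one cluster of the excitatory neuron-like class (cluster 5) took 49.3% of that class, against 36.3 to 40.3% in the other 8 animals. Myt1l itself was read at 1890, 2201 and 2096 counts per 1000000 UMIs of a class (CPM) in WT, 2189, 2448 and 2373 CPM in Het and 2486, 2778 and 2504 CPM in KO excitatory neuron-like nuclei. All KO animals lay above all Het and WT animals by title, and KO against WT was +0.34 ± 0.08 on the log2 scale (adjusted p = 0.0467 in edgeR's quasi-likelihood test), a call lost in 11 of 20 alternatives. These counts do not read the mutated site, so they do not check the genotype of an animal.

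Levels in WT, Het and KO animals together are described first. They are CPM of all UMIs of a class in 1 animal, given as mean ± SD over 9 animals. CPM does not correct for gene length, so each gene is compared only with itself across classes. Whether ranges of the 9 animals overlap is stated in place of a test, since classes and clusters were built from the same nuclei.

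Ntn1 (chr11:68209364-68400823, mm10, minus strand) encodes netrin-1. Its level was highest in inhibitory neuron-like nuclei (109 ± 7.72 CPM), 2.42 times the next class, inhibitory progenitor-like nuclei (45 ± 7.99 CPM), and these ranges did not overlap. It was lowest in excitatory neuron-like nuclei, at 4.92 ± 1.55 CPM, a range that overlapped the Cajal-Retzius-like one. Within the inhibitory neuron-like class the 8 clusters were far apart. Cluster 11, led by the striatal projection neuron genes Ikzf1, Rarb and Tac1, held 290 ± 25.7 CPM, and cluster 0, led by Nxph1, Nxph2 and Maf, held 7.80 ± 1.96 CPM, a ratio of 37.1. The highest Ntn1 levels of all lay outside the named classes, in cluster 19 (568 ± 72.0 CPM) and cluster 10 (408 ± 47.8 CPM), which were both led by Otx2os1, Otx2, Egfr and Ano1 among other genes.

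Draxin (chr4:148098437-148130698, minus strand) was highest in Cajal-Retzius-like nuclei, the early Reln-expressing neurons of the marginal zone, at 384 ± 75.9 CPM. Excitatory neuron-like nuclei followed at 226 ± 22.3 CPM and did not overlap them. Intermediate progenitor-like nuclei of the excitatory lineage held 163 ± 18.5 CPM and radial glia-like nuclei 123 ± 14.2 CPM, and these neighbours overlapped. Across the 28 clusters with enough nuclei, the log2 levels of Ntn1 and Draxin ran against each other more than any other pair among the 9 genes, with a Pearson correlation of -0.41. The 28 points share libraries and depth, so this is a description only.

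Dcc, the main attractive netrin receptor (chr18:71253634-72351069, minus strand), was counted in every class. Excitatory intermediate progenitor-like nuclei held 15093 ± 1043 CPM, above Cajal-Retzius-like nuclei (10971 ± 1467 CPM) without overlap. Excitatory neuron-like nuclei held 8291 ± 460 CPM, a range that met the lower end of the Cajal-Retzius-like range. Inhibitory neuron-like and inhibitory progenitor-like nuclei overlapped at 5133 ± 343 CPM and 4621 ± 396 CPM, and radial glia-like nuclei held 2706 ± 369 CPM. This order holds for the class means, not for every cluster. Cluster 5 of the excitatory neuron-like class held 12354 ± 557 CPM and overlapped cluster 18 of the intermediate progenitor-like class (12105 ± 972 CPM). The inhibitory neuron-like clusters ran from 1810 ± 334 CPM in cluster 0 to 10958 ± 869 CPM in cluster 24, and cluster 0 lay below cluster 15 of the radial glia-like class (3496 ± 451 CPM) without overlap.

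Neo1, which also binds repulsive guidance molecules (chr9:58874687-59036441, minus strand), gave the clearest order. Excitatory neuron-like nuclei were highest at 661 ± 28.4 CPM, followed by Cajal-Retzius-like nuclei at 554 ± 42.3 CPM. No neighbouring classes in its order overlapped, down to microglia and macrophage-like nuclei at 61.7 ± 34.9 CPM. This order holds for the class means, not for every cluster. Cluster 22 of the excitatory neuron-like class held 468 ± 43.3 CPM, and the highest mean over the 28 clusters, 985 CPM, was in an unnamed cluster. Dscam (chr16:96590840-97170752, minus strand) was also highest in excitatory neuron-like nuclei, at 1083 ± 66.6 CPM, 2.22 times inhibitory neuron-like nuclei at 487 ± 59.2 CPM. The inhibitory mean covered wide differences between clusters, from 1331 ± 132 CPM in cluster 9, led by Gbx1 and Lhx8, to 52.5 ± 26.1 CPM in cluster 0.

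Of the 4 Unc5 receptors, Unc5a, Unc5b and Unc5c were highest in Cajal-Retzius-like nuclei among the classes tested. Unc5a (chr13:54949411-55006018, plus strand) was low throughout. Its highest class was Cajal-Retzius-like, at 35.4 ± 8.54 CPM from 17.5 to 43.0 UMIs per animal, and this range overlapped that of excitatory neuron-like nuclei (19.3 ± 2.03 CPM). Over the 28 clusters its highest mean was 35.6 CPM, in an unnamed cluster. Unc5b (chr10:60762593-60831581, minus strand), best known from blood vessels, stood at 191 ± 16.7 CPM in Cajal-Retzius-like nuclei and at 11.1 ± 1.92 CPM in the next class, excitatory neuron-like, a ratio of 17.1 without overlap. Endothelial-like nuclei, which were too few for testing (328, with 17 in 1 animal), held 279 ± 54.1 CPM. Their leading genes included Rgs5, which is on the mural and fibroblast marker list, so mural nuclei may be among them.

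Unc5c (chr3:141465216-141834924, plus strand) was likewise highest in Cajal-Retzius-like nuclei at 972 ± 127 CPM, 3.54 times inhibitory neuron-like nuclei (274 ± 37.6 CPM). Excitatory neuron-like nuclei followed at 101 ± 29.3 CPM, and neither step overlapped. Their mean was 66.7 CPM in run 1 and 110 CPM in run 2. In the unnamed cluster 2 the animal Het 1, which alone held diencephalic neuron-like nuclei, had 1336 CPM of Unc5c, against 298 to 414 CPM in the other 8 animals. Unc5d (chr8:28646717-29219636, minus strand), a receptor that also binds Flrt proteins, was instead highest in excitatory intermediate progenitor-like nuclei at 3492 ± 398 CPM, 4.76 times excitatory neuron-like nuclei at 733 ± 98.2 CPM. The excitatory and inhibitory neuron-like classes overlapped for Unc5d, and their order differed between the runs. Run 1 gave means of 1126 CPM in excitatory and 659 CPM in inhibitory neuron-like nuclei, and run 2 gave 642 and 722 CPM. The unnamed cluster 6, led by Cemip, Adamtsl3 and Nrp1, held more Unc5d than any other cluster, at 6514 ± 597 CPM. Unc5d overlaps 3 annotated genes on its own strand (Gm9911, Gm45652 and Svet1), whose reads may not be told apart from its own.

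Within the excitatory neuron-like class, Unc5c and Unc5d were highest in different clusters. Cluster 22 carries Fezf2 and Tbr1, transcription factor genes of deep layer neurons, and cluster 8 carries Tbr1 and Bhlhe22, markers of excitatory neurons. Unc5c was 306 ± 82.5 CPM in cluster 22 and 12.2 ± 5.07 CPM in cluster 5, a ratio of 25.1. Unc5d was 2005 ± 215 CPM in cluster 8 and 52.9 ± 33.6 CPM in cluster 22, a ratio of 37.9. The ranges of the 9 animals did not overlap in either pair. All 9 genes had the same highest class in the 3 WT animals alone as in all 9 animals.

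**Figure D1:**
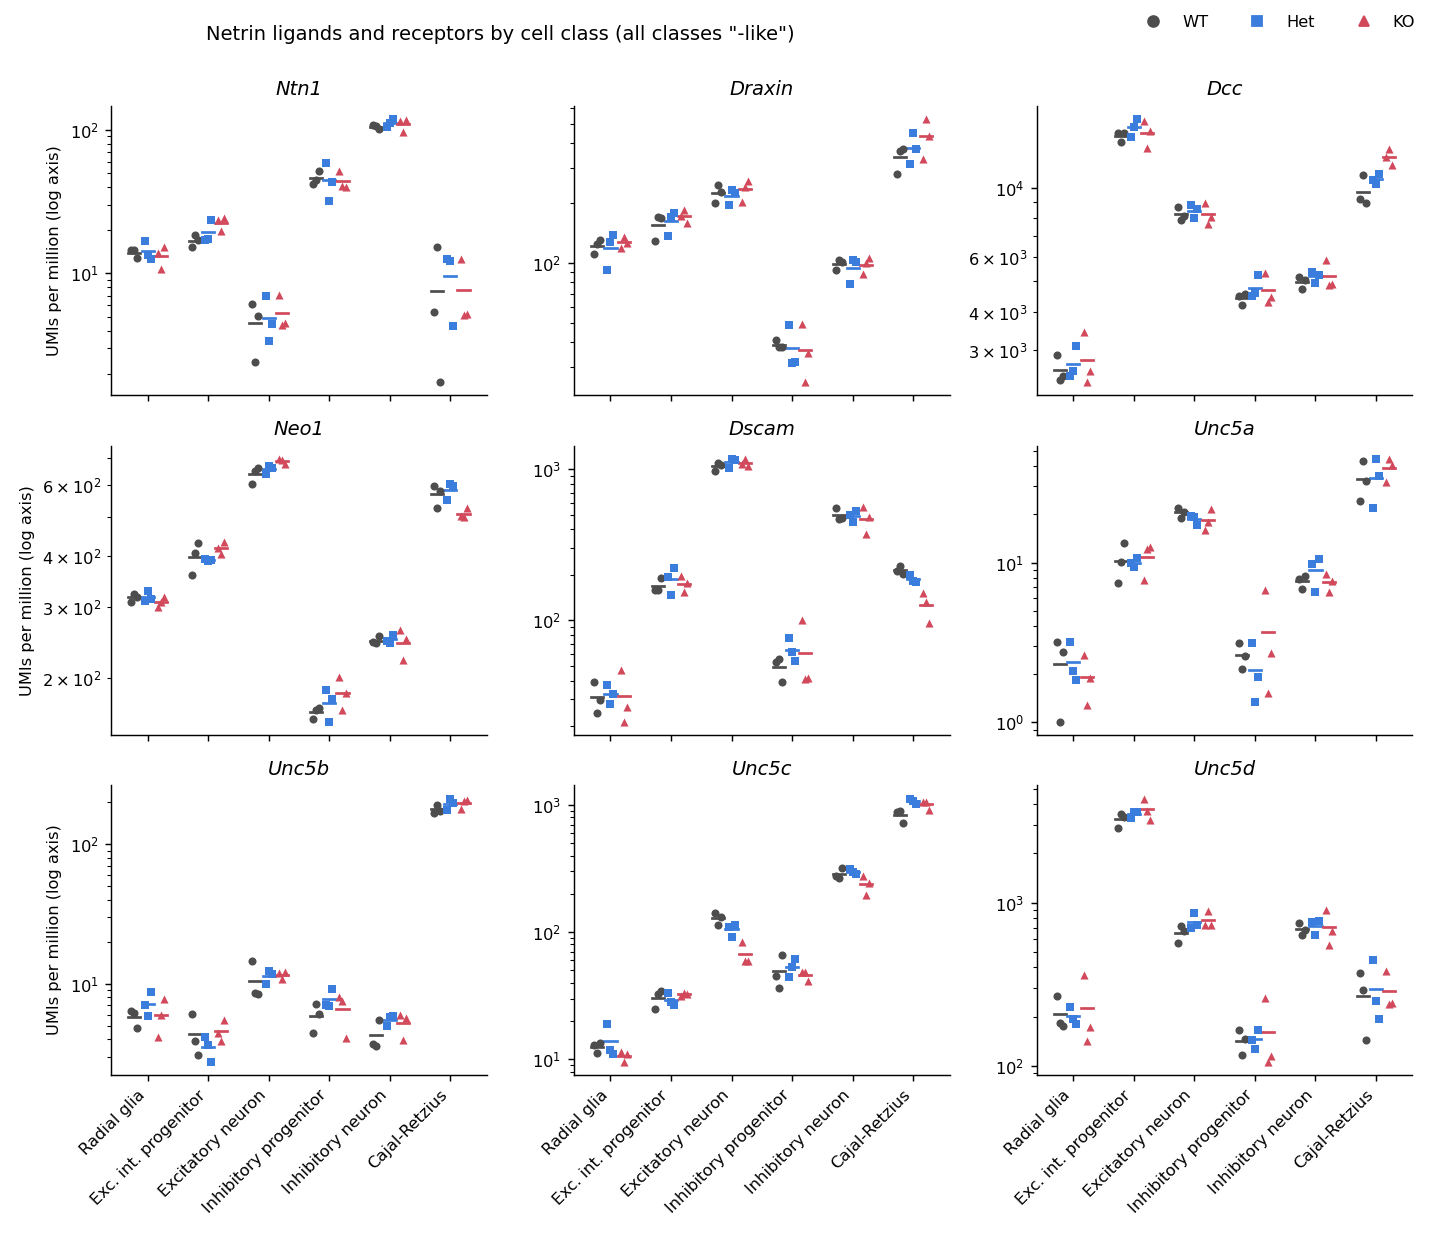
Level of each of the 9 genes in CPM (log axis) in 6 neural classes, with 1 point per animal, coloured by genotype, and a short line at each genotype's mean (n = 3). Unc5b stands apart in Cajal-Retzius-like nuclei, Dcc and Unc5d peak in excitatory intermediate progenitor-like nuclei, and Ntn1 peaks in inhibitory neuron-like nuclei.

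**Figure D2:**
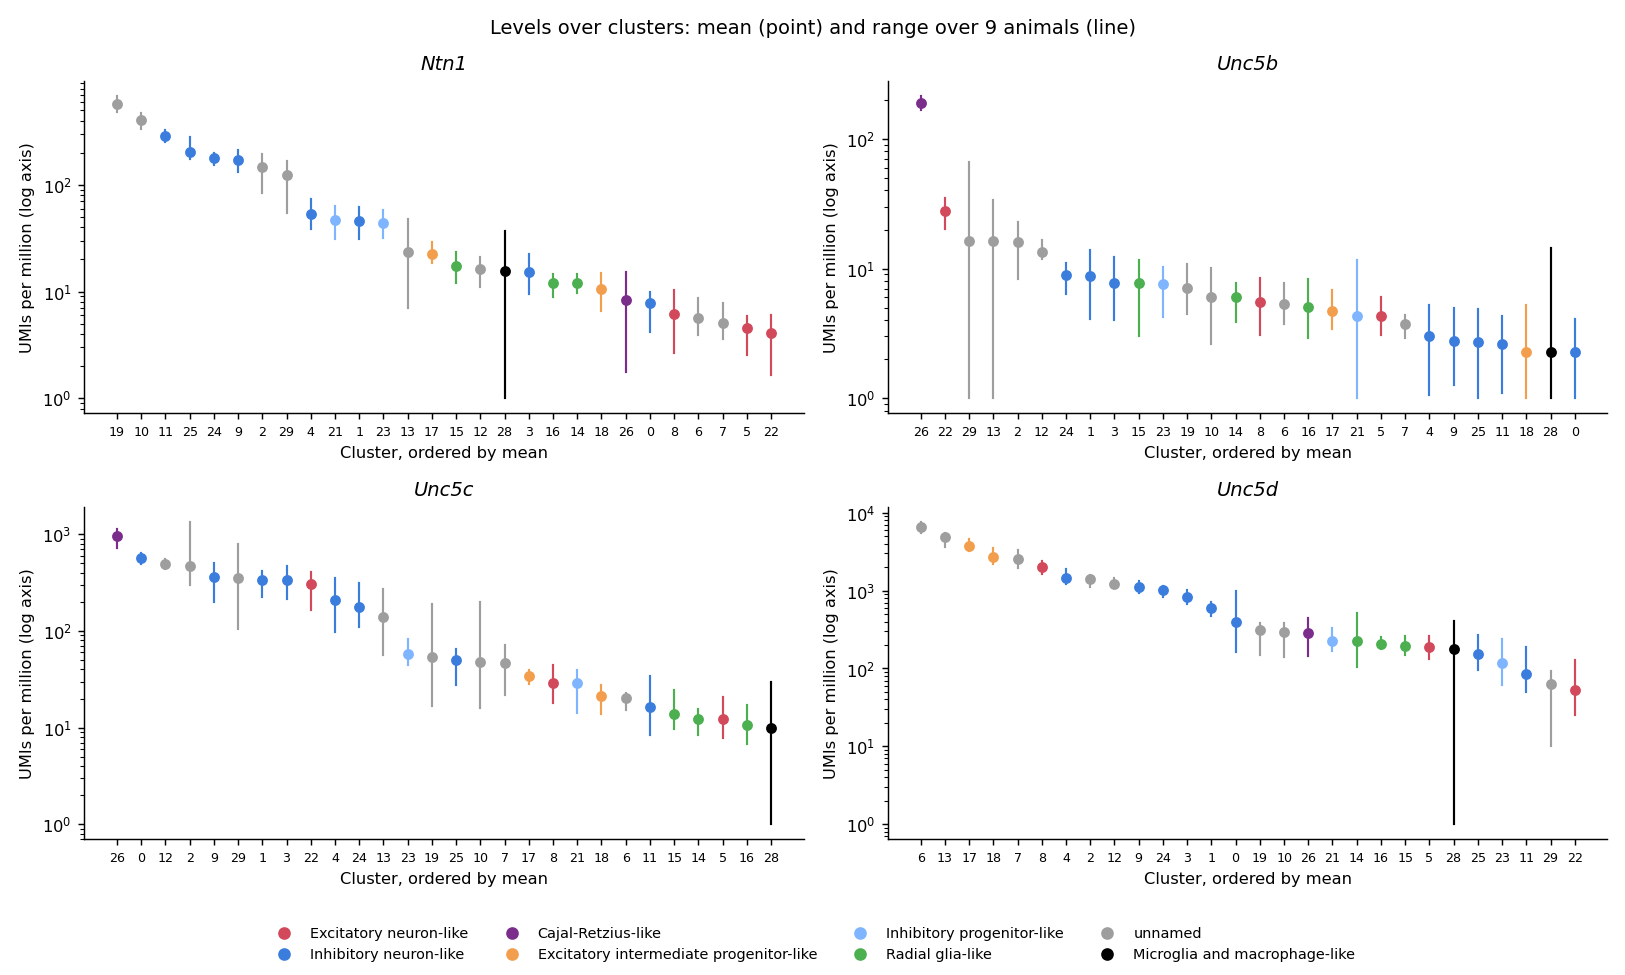
Level of Ntn1, Unc5b, Unc5c and Unc5d in CPM (log axis, values under 1 drawn at 1) in the 28 clusters with at least 20 nuclei in every animal, ordered by mean, with the mean over 9 animals as a point and their range as a line. Unc5c reaches 306 CPM and Unc5d 52.9 CPM in cluster 22, while cluster 8 holds 2005 CPM of Unc5d.

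Genes whose log2 levels followed each receptor most closely over the 28 clusters were found among up to 11076 genes, as a description. Dscam was followed most closely by Jakmip1 (Pearson correlation 0.91) and L1cam (0.90), which encodes another neural adhesion molecule. Unc5b was followed by Trp73 (0.79), a marker gene of Cajal-Retzius cells, and Unc5c by Pja2 (0.84) and Car10 (0.83). For Neo1 the closest were 6530402F18Rik (0.83) and Kcnn3 (0.82), for Dcc Stk36 (0.80) and Rnf146 (0.74), and for Unc5a 6430548M08Rik and Zfp341 (both 0.88). The closest to Unc5d were A530058N18Rik (0.79) and Gm27008 (0.78), to Ntn1 Peg10 and D030055H07Rik (both 0.83), and to Draxin Ahdc1 (0.83) and Cxadr (0.81). Among the 9 genes, Neo1 and Unc5a ran most closely together (0.79).

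The comparison of KO with WT asked which of these genes differ when both Myt1l alleles are mutated. Counts were summed per animal and class and tested over all genes with edgeR's quasi-likelihood test and Benjamini-Hochberg adjustment, and a gene was called when the adjusted p was under 0.05 and the log2 fold change was beyond 0.2. Of the 9 genes, Unc5c was lower in KO excitatory neuron-like nuclei, and Dscam was lower in KO Cajal-Retzius-like nuclei. None of the 9 was called in any of the other 5 classes. Over all genes, 376 of 16479 (2.28%) were called in the excitatory neuron-like class, 13 of 8777 (0.148%) in the Cajal-Retzius-like class, 6 of 18461 (0.0325%) in the inhibitory neuron-like class and 0% in the other 4 classes.

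Unc5c in excitatory neuron-like nuclei was 142, 113 and 132 CPM in the 3 WT animals. It was 110, 92.2 and 113 CPM in Het and 83.8, 58.9 and 59.7 CPM in KO animals, from 611 to 1671 UMIs per animal. The 3 KO animals lay below all WT and all Het animals, while Het and WT overlapped. The log2 fold change of KO against WT was -0.92 ± 0.12 (SE), a 1.89-fold lower level, with an adjusted p of 0.00190 in edgeR's quasi-likelihood test. The gene overlaps 1 annotated gene on its own strand (Gm43826) and 2 on the other (Gm15688 and Gm15689), and the sources used here do not say whether reads were counted by strand. KO against Het gave -0.63 ± 0.12 (adjusted p = 0.0775 in edgeR). With the replicate block described for Unc5d, its adjusted p was 0.000223 in edgeR, and the share of all genes called in that fit is not given here. Het against WT gave -0.29 ± 0.12 (adjusted p = 0.9997 in edgeR). KO against Het and Het against WT both share animals with the comparison of KO and WT.

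The log2 fold change of Unc5c was negative in both runs, and only run 2 passed the test alone. The class held 5139 nuclei in run 1 (at least 415 per animal) and 25925 in run 2 (at least 2116 per animal). In run 2 the log2 fold change was -0.90 (adjusted p = 0.0117 in edgeR), and in run 1 it was -0.77 (adjusted p = 0.352 in edgeR). Without Het 1 it was -0.92 (adjusted p = 0.00250 in edgeR). When nuclei were drawn to the same number per cluster in every animal it was -0.70 (adjusted p = 0.0231 in edgeR). Cluster 22, with the most Unc5c of the class, was 25.2 to 29.0% of the class in WT and 20.8 to 26.3% in KO.

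**Figure D3:**
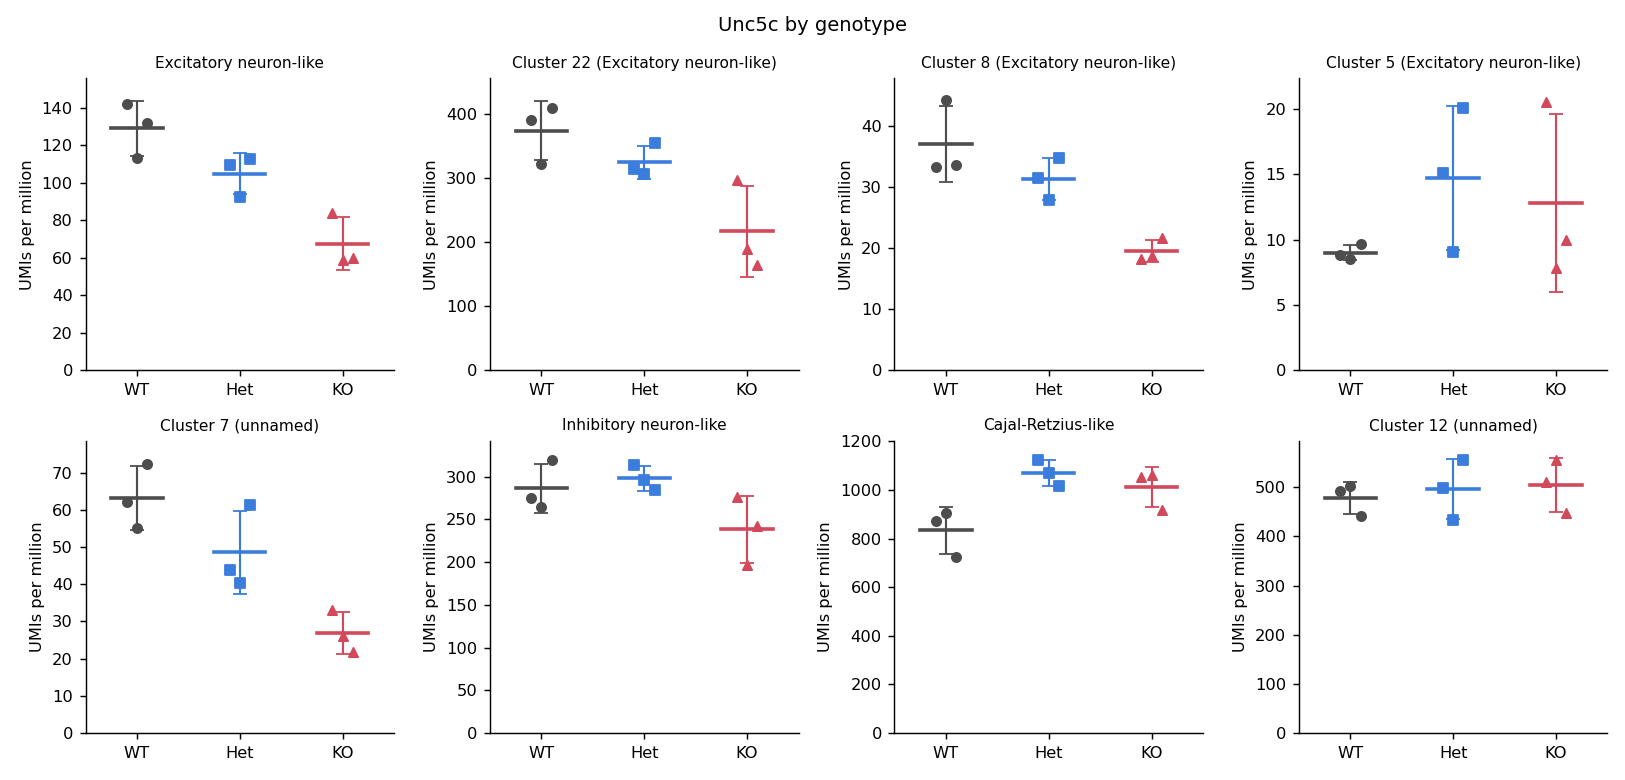
Unc5c level in CPM per animal (points) with the mean and SD of each genotype (n = 3). Panels show neuron classes, clusters 22, 8 and 5 of the excitatory neuron-like class, and the unnamed clusters 7 and 12. In the excitatory neuron-like class the KO animals lie between 58.9 and 83.8 CPM, under every WT and Het animal, and in the Cajal-Retzius-like class they do not lie under WT.

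Unc5c was also tested in single clusters. Among the excitatory neuron-like clusters the gene was highest in cluster 22. Levels there were 391, 322 and 410 CPM in WT, 315, 306 and 355 CPM in Het and 297, 190 and 164 CPM in KO. The KO animals lay below all others, and the log2 fold change was -0.77 ± 0.16 (adjusted p = 0.0236 in edgeR, 2.23% of all genes called). This call was lost without WT 1 (-0.76, adjusted p = 0.0672), WT 3 (-0.70, adjusted p = 0.0992), KO 2 (-0.71, adjusted p = 0.113) or KO 3 (-0.59, adjusted p = 0.0800), all in edgeR. It was also lost in run 1 alone (-0.74, adjusted p = 0.402) and in run 2 alone (-0.75, adjusted p = 0.0615).

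In cluster 8 the levels were lower throughout, at 33.3, 44.2 and 33.6 CPM in WT, 31.4, 27.9 and 34.7 CPM in Het and 18.2, 18.7 and 21.6 CPM in KO. Again no KO animal reached any WT or Het animal, with a log2 fold change of -0.90 ± 0.15 (adjusted p = 0.00431 in edgeR, 1.53% of all genes called). Run 2 alone gave -0.97 (adjusted p = 0.0187 in edgeR), and the call was lost in run 1 alone (-0.75, adjusted p = 0.276 in edgeR). Cluster 5, with the least Unc5c of the excitatory neuron-like class, gave no call. There, 8.75, 8.53 and 9.74 CPM in WT and 20.6, 7.92 and 9.98 CPM in KO gave +0.51 ± 0.31 (adjusted p = 0.625 in edgeR).

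Outside the named class, the unnamed cluster 7, led by Tfap2d and Tafa1 and positive for Neurod6, Neurod2 and Tbr1, gave the largest drop among the clusters with a call. Its levels were 62.0, 55.2 and 72.2 CPM in WT, 43.8, 40.4 and 61.4 CPM in Het and 32.9, 26.2 and 21.7 CPM in KO. Het overlapped WT and KO did not overlap either, and the log2 fold change of KO against WT was -1.23 ± 0.18 (adjusted p = 0.00290 in edgeR, 1.16% of all genes called). Run 2 alone gave -1.34 (adjusted p = 0.00392 in edgeR), and the call was lost in run 1 alone (-0.75, adjusted p = 0.687 in edgeR). The unnamed cluster 12, led by Sim1, held 479 CPM in WT and 505 CPM in KO on average, with +0.10 ± 0.11 (adjusted p = 0.811 in edgeR). The unnamed cluster 6 (18804 nuclei), whose markers best matched the excitatory neuron list, gave no call for any of the 9 genes (-0.23 to +0.21). A lower Unc5c level in KO was therefore called in 3 clusters with excitatory markers and not in all clusters with such markers or with the gene.

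Other cell types were looked for in the excitatory neuron-like class through their summed markers. The 8 inhibitory neuron markers summed to between 34.3 and 58.5 CPM in WT and between 32.8 and 65.2 CPM in KO, and none of them was at 0. The 8 Cajal-Retzius markers summed to between 99.7 and 158 CPM in WT and between 88.2 and 138 CPM in KO. Both ranges overlapped between the genotypes. Without overlap, the 6 diencephalic neuron markers summed to between 52.0 and 57.0 CPM in WT and between 57.2 and 72.3 CPM in KO, and the 6 inhibitory progenitor markers summed to between 17.3 and 19.95 CPM in WT and between 15.1 and 17.0 CPM in KO. The part of these 2 lists in the result was not tested.

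No lower level of Unc5c was called in the other neuron classes. In Cajal-Retzius-like nuclei Unc5c was 873, 904 and 725 CPM in WT, 1124, 1071 and 1017 CPM in Het and 1055, 1061 and 917 CPM in KO. All KO and Het animals lay above all WT animals, but neither difference was called: KO against WT was +0.28 ± 0.11 (adjusted p = 0.391 in edgeR) and Het against WT +0.37 ± 0.11 (adjusted p = 1.00 in edgeR). In inhibitory neuron-like nuclei it was 276, 265 and 319 CPM in WT and 276, 197 and 242 CPM in KO, an overlapping pair of ranges, with -0.24 ± 0.10 (adjusted p = 0.796 in edgeR).

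The KO effect itself was then compared between classes, with animal as a block. These differences were not tested with nuclei drawn to the same number per cluster. The Unc5c effect in Cajal-Retzius-like nuclei exceeded that in excitatory neuron-like nuclei by 1.21 ± 0.13 on the log2 scale (adjusted p = 2.51e-07 in edgeR, 0.196% of 15846 genes called). The effect in inhibitory neuron-like nuclei exceeded it by 0.68 ± 0.10 (adjusted p = 0.0129 in edgeR, 0.155% of 18768 genes called). The second difference was no longer called without WT 1 (0.58, adjusted p = 0.0656 in edgeR) or without WT 2 (0.71, adjusted p = 0.0585 in edgeR). It was also lost without upper limits on UMIs and genes per nucleus (0.61, adjusted p = 0.117 in edgeR) and in run 1 alone, where it was 0.35 (adjusted p = 0.995 in edgeR), while run 2 alone gave 0.72 (adjusted p = 0.0182 in edgeR). In inhibitory neuron-like nuclei the 9 radial glia markers summed to between 180.5 and 194 CPM in WT and between 166 and 179 CPM in KO, and the 4 choroid plexus markers to between 1.95 and 2.68 CPM and between 2.71 and 3.48 CPM. Neither pair of ranges overlapped, none of these markers was at 0, and their part in the result was not tested.

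Dscam was the other receptor with a call. In Cajal-Retzius-like nuclei its level was 211, 228 and 204 CPM in WT, 200, 182 and 178 CPM in Het and 151, 132 and 96.6 CPM in KO. The 3 genotypes followed each other without overlap, from 77.0 to 163 UMIs per animal. KO against WT was -0.78 ± 0.15 on the log2 scale, 1.72-fold lower, with an adjusted p of 0.0383 in edgeR's quasi-likelihood test. Dscam is overlapped by 3 annotated genes on the other strand, whose reads may not be told apart from its own. KO against Het was -0.59 ± 0.15 (adjusted p = 0.198 in edgeR).

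This call is close to the threshold, in the rarest of the neuron classes tested (2041 nuclei, at least 150 per animal). It was lost on leaving out any of 7 animals, with log2 fold changes in edgeR of -0.79 (adjusted p = 0.174) without WT 1, -0.73 (adjusted p = 0.0649) without WT 2, -0.80 (adjusted p = 0.0802) without WT 3 and -0.77 (adjusted p = 0.0593) without Het 2. It was -0.77 (adjusted p = 0.0640) without Het 3, -0.81 (adjusted p = 0.0921) without KO 2 and -0.57 (adjusted p = 0.131) without KO 3. Without Het 1 the call held (-0.78, adjusted p = 0.0413 in edgeR). Run 2 alone gave mean levels of 218 CPM in WT, 192 CPM in Het and 124 CPM in KO and a log2 fold change of -0.83 (adjusted p = 0.0233 in edgeR). Run 1 held 282 of the nuclei and was not tested, and its means were 172, 161 and 154 CPM.

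No difference of Dscam was called in other neurons. In excitatory neuron-like nuclei it was 977, 1091 and 1062 CPM in WT and 1080, 1159 and 1046 CPM in KO, and the overlapping groups gave +0.09 ± 0.08 (adjusted p = 0.699 in edgeR). In inhibitory neuron-like nuclei the log2 fold change was -0.06 ± 0.12 (adjusted p = 0.975 in edgeR). The KO effect in Cajal-Retzius-like nuclei minus that in excitatory neuron-like nuclei was -0.86 ± 0.15 on the log2 scale (adjusted p = 0.00203 in edgeR). The 8 excitatory neuron markers summed to between 297 and 323 CPM in WT and between 268 and 337 CPM in KO Cajal-Retzius-like nuclei, and the 8 Cajal-Retzius markers to between 23692 and 27041 CPM and between 22170 and 25925 CPM, so both overlapped. Without overlap, 4 cell cycle genes summed to between 93.0 and 148 CPM in WT and between 82.9 and 93.0 CPM in KO, and their part in the result was not tested.

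**Figure D4:**
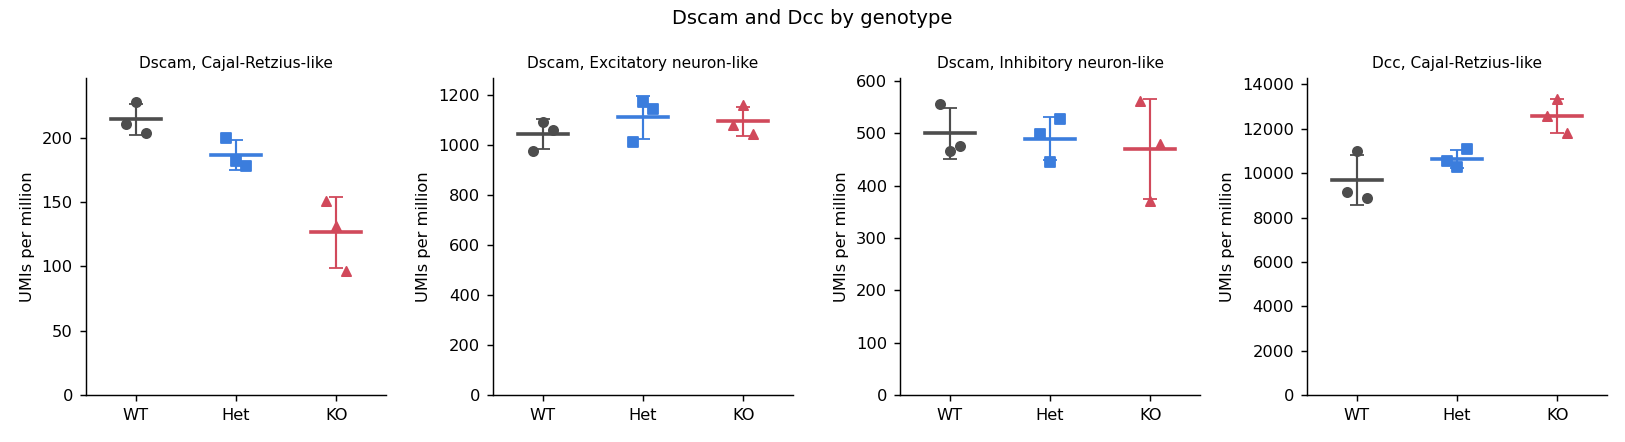
Dscam and Dcc levels in CPM per animal (points) with the mean and SD of each genotype (n = 3). In Cajal-Retzius-like nuclei KO animals lie between 96.6 and 151 CPM of Dscam, under every WT animal, and between 11821 and 13352 CPM of Dcc, above every WT animal.

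Dcc had the opposite sign in the same nuclei, without a call in the test as described. Cajal-Retzius-like nuclei held 9166, 11007 and 8901 CPM in WT, 10549, 10279 and 11074 CPM in Het and 12589, 13352 and 11821 CPM in KO. The KO animals lay above all WT and Het animals, and the log2 fold change was +0.38 ± 0.10 (unadjusted p = 0.00124, adjusted p = 0.143, in edgeR). It was called in DESeq2 (+0.38, adjusted p = 0.0144), and in edgeR without the filter on low counts (+0.40, adjusted p = 0.00237), without upper limits on nuclei (+0.42, adjusted p = 0.0357) and without WT 2 (+0.49, adjusted p = 0.0428). It was not called in the other 15 of 19 alternatives. Run 2 held means of 9490 CPM in WT, 10214 CPM in Het and 12609 CPM in KO. Run 1, which was not tested, held 11919, 12085 and 12421 CPM. The log2 fold change of Dcc was near 0 in excitatory neuron-like nuclei, where 8653, 7899 and 8133 CPM in WT and 8948, 7623 and 8039 CPM in KO gave +0.01 ± 0.07 (adjusted p = 0.960 in edgeR).

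Unc5d in excitatory neuron-like nuclei was 566, 721 and 669 CPM in WT, 700.1, 867 and 728 CPM in Het and 729, 893 and 724 CPM in KO. The KO animals lay above all WT animals, yet at +0.28 ± 0.12 the difference was not called (adjusted p = 0.291 in edgeR). Animals of WT and KO with the same replicate number deviated together in this class (r of 0.121 to 0.270 over the 3 pairs), and with the number as a block the difference was called (+0.28 ± 0.06, adjusted p = 0.00333 in edgeR, 7.79% of all genes called in that fit). It was also called with nuclei drawn to the same number per cluster in every animal (+0.36, adjusted p = 0.0365 in edgeR) and without the filter on low counts (+0.27, adjusted p = 0.00447 in edgeR). In single clusters where every such pair passed r = 0.1, the block added calls for Unc5d in cluster 5 (+0.51 ± 0.07, adjusted p = 0.000187 in edgeR, 2.33% of all genes called), Neo1 in cluster 22 (+0.31 ± 0.06, adjusted p = 0.00337 in edgeR, 7.05% called) and Dcc in cluster 0 (+0.34 ± 0.06, adjusted p = 0.00692 in edgeR, 1.56% called). For Unc5d, the excitatory intermediate progenitor-like class, its highest among those tested, gave +0.22 ± 0.11 (adjusted p = 0.994 in edgeR).

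The other 5 genes passed no test of KO against WT in a class. Neo1 in excitatory neuron-like nuclei was 605, 650.4 and 662 CPM in WT and 697, 693 and 676 CPM in KO, separate ranges with a log2 fold change of +0.12 ± 0.06 (adjusted p = 0.388 in edgeR). Draxin in Cajal-Retzius-like nuclei was 281, 364 and 375 CPM in WT and 334, 530 and 432 CPM in KO, overlapping, with +0.34 ± 0.16 (adjusted p = 0.520 in edgeR). Unc5b in the same nuclei was +0.15 ± 0.12 (adjusted p = 0.814) and Unc5a +0.22 ± 0.27 (adjusted p = 0.890). For Ntn1 the log2 fold change was +0.09 ± 0.08 (adjusted p = 0.913 in edgeR) in inhibitory neuron-like nuclei, where WT animals held 108, 106 and 102 CPM and KO animals 116, 96.1 and 117 CPM.

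Ntn1 was too low for testing in the Cajal-Retzius-like class, Unc5a in the inhibitory progenitor-like class, and all but Dcc and Unc5d in the microglia and macrophage-like class. Of the members that passed the filter on low counts (9 in the excitatory neuron-like class), the median log2 fold change of KO against WT was 0.09 in that class, beside -0.01 over all genes tested. In the Cajal-Retzius-like class it was 0.18 over 8 members, beside -0.01 over all genes.

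Het against WT asked for the effect of 1 mutated allele. None of the 9 genes was called in any class by edgeR or by DESeq2, and over all genes 0% were called in edgeR. Before adjustment, 3 values had a p under 0.05: Unc5c in both excitatory neuron-like and Cajal-Retzius-like nuclei, in opposite directions (above), and Dcc in microglia and macrophage-like nuclei, where 1 WT animal held 60.5 CPM from 2.58 UMIs and the other WT animals 1817 and 1856 CPM. KO against Het gave no call in edgeR, with 0.134% of all genes called in the excitatory neuron-like class and 0.0684% in the Cajal-Retzius-like class. In DESeq2 Unc5c was called in excitatory neuron-like nuclei (-0.63, adjusted p = 0.000503). It was called there in 4 of 20 alternatives, and the share of all genes called by DESeq2 in this comparison is not given here. The p under 0.05 before adjustment numbered 3 in Cajal-Retzius-like, 1 in excitatory neuron-like and 1 in inhibitory neuron-like nuclei.

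**Figure D5:**
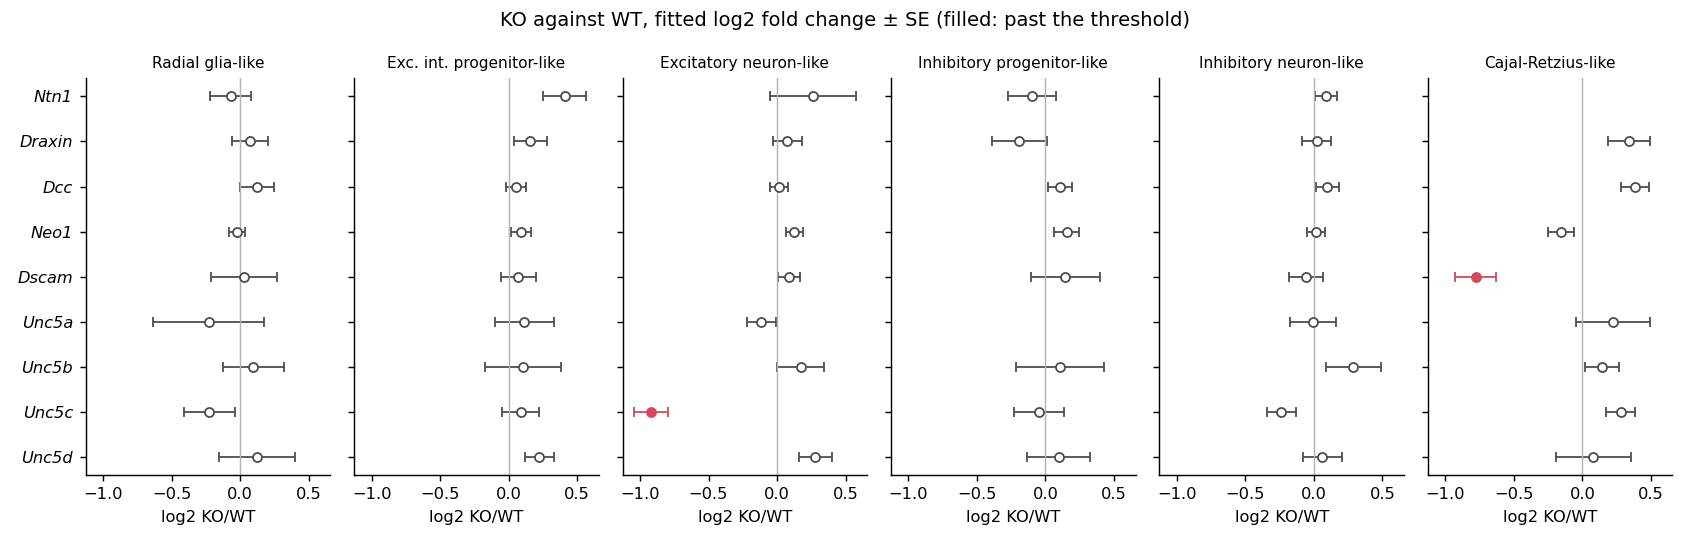
Log2 fold change of KO against WT with its standard error (bar) for each gene in 6 classes, with called values filled; genes too low for testing have no point. Unc5c at -0.92 in excitatory neuron-like nuclei and Dscam at -0.78 in Cajal-Retzius-like nuclei are the called values.

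A list of 38 other genes of the netrin pathway was read in the same fits. It holds 5 other netrins, 6 other ligands of the receptors, 7 related or partner receptors and 20 cytoplasmic partners and effectors. In excitatory neuron-like nuclei 2 of 37 tested were called lower in KO than in WT and 0 higher, beside the 2.28% of all genes called in either direction, and both are receptors. Dscaml1, the paralogue of Dscam, went from 265 CPM in WT to 209 CPM in KO on average (-0.32 ± 0.08, adjusted p = 0.0439 in edgeR). Lrrc4c, which encodes the receptor for netrin-G1, went from 646 to 520.5 CPM (-0.29 ± 0.07, adjusted p = 0.0336 in edgeR). Both calls are close to the threshold and were lost in most alternatives. Dscaml1 lost its call in 12 of 20, among them leaving out any animal but KO 1 (adjusted p = 0.0502 to 0.196 in edgeR) and each run alone. Lrrc4c lost its call in 11 of 20, among them leaving out WT 1, WT 2, WT 3, Het 1, KO 1 or KO 3 (adjusted p = 0.0610 to 0.144 in edgeR) and each run alone, with -0.20 (adjusted p = 0.702 in edgeR) in run 1. With the replicate block 5 genes of the list were called lower (Dscaml1, Lrrc4c, Maged1, Trim67 and Trim9) and 2 higher (Flrt3 and Ntng2), beside 7.79% of all genes. In the fit without the block, the median of the list was -0.02, beside -0.01 over all genes, and no gene of the list was called in the other classes or in the other comparisons of classes.

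Within clusters, 4 genes of the list were called lower in KO than in WT. In cluster 7, where 2 of 36 tested were called beside 1.16% of all genes, these were Ntng1, the gene for netrin-G1 (-0.92 ± 0.16, adjusted p = 0.00971 in edgeR), and Trim67, a ubiquitin ligase gene whose product binds Dcc (-0.71 ± 0.13, adjusted p = 0.00971). Both were lost without KO 2 (each at adjusted p = 0.0631 in edgeR) and without WT 3 (adjusted p = 0.0545 and 0.0539), and in run 1 alone. In cluster 8, with 1 of 36 tested beside 1.53%, it was Dscaml1 (-0.48 ± 0.08, adjusted p = 0.00630 in edgeR). In cluster 22, with 1 of 37 tested beside 2.23%, it was Robo1, a Slit receptor gene (-0.61 ± 0.09, adjusted p = 0.00222 in edgeR), which was also lower in KO than in Het (-0.46 ± 0.09, adjusted p = 0.0459, 0.264% of all genes called). The difference from Het was lost without Het 1, Het 2, Het 3, KO 2, WT 2 or WT 3 (adjusted p = 0.0665 to 0.216 in edgeR) and in run 2 alone. Unc5c was called lower in each of these 3 clusters too, as given above.

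RefSeq promoter windows on GRCm38.p6, from 250 bases before to 50 after a start, were matched for 6 of the 9 genes (Unc5a, Unc5b, Unc5c, Neo1, Dscam and Draxin) and searched for AAGTT and its reverse complement AACTT, the core of the site bound by the Myt1 family. None of the 6 windows held it, against 39.3% of 32851 promoters of the same length. That says only that these letters are not in these windows. The 6 windows were rich in CG, with 24 to 54 CG dinucleotides each against a median of 7 over all promoters, and a GC content of 68.3 to 82.7% against a median of 52.7%. The part upstream of the start is shown for Dscam, the receptor with a call in Cajal-Retzius-like nuclei (chr16:97170753-97170985, minus strand, 16 CG), and for Unc5b, the receptor with the highest ratio between its first and second class among those tested (chr10:60831582-60831831, minus strand, 27 CG), with each CG in capitals:
Dscam: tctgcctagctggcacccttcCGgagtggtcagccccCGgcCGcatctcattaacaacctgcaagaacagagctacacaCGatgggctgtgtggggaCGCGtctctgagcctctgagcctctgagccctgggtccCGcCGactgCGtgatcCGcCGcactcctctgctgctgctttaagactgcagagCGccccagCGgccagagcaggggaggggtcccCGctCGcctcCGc
Unc5b: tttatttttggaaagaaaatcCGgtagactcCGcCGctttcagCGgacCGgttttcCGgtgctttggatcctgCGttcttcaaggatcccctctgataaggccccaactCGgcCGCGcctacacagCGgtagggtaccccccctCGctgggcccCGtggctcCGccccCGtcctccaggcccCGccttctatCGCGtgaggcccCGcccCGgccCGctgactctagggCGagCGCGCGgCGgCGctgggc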

How the data were processed

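The 18 libraries (9 embryos, 2 runs each) were single nucleus RNA-seq libraries of polyA RNA. The authors demultiplexed, trimmed and aligned reads to mm10 and counted UMIs with the ScaleRna pipeline, and called cells with its CellFinder step. The deposited values are expected counts, that is, estimated UMI counts of which 6.70 to 8.71% per library were not whole numbers, and they were rounded after summing. The sources used here do not give the annotation release or the strand setting. Because estimates share ambiguous reads between genes, counts of overlapping genes are uncertain.

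Barcodes with 800 to 6000 UMIs, 300 to 3000 genes, at most 1% mitochondrial counts and log genes at 0.9 or more of log UMIs were kept (200811), and the 5% with the highest Scrublet scores in each library were removed. Clustering used 3000 variable genes, 50 components, 20 neighbours and Leiden resolution 1 (scanpy 1.11.5, leidenalg 0.10.2). It gave 31 clusters, of which 28 held at least 20 nuclei in every animal. Clusters were named from at least 3 detected markers, by a rule set after the clusters were seen.

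Counts were summed per animal and class, from 42757865 to 73780479 UMIs per animal in all. They were tested in 1 fit of the 9 animals with edgeR 4.0.16 (filterByExpr, TMM, quasi-likelihood F-test, two-sided, R 4.3.3), adjusted by Benjamini-Hochberg over all genes of a class. The replicate is the animal (n = 3). The fit had no replicate block. No source ties replicate numbers to litters, but deviations from the group means correlated between same-numbered KO and WT animals at over 0.1 in every pair in 5 of 7 classes and 8 of 20 clusters, and there the value with the number as a block is given where it changed a call. Differences between classes were tested as an interaction with animal as a block. The code was tested on simulated data. Alternatives were DESeq2 1.42.0, RLE scaling, no filter on low counts, no upper limits on nuclei, no doublet removal, 2 genotypes only, each run alone, nuclei drawn to the same number per cluster in every animal, clustering with the 9 genes, the replicate number as a block and leaving out each animal.

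The genes reported are the 9 members, Myt1l, the genes of a fixed pathway list that were called, and the 2 genes most like each member over clusters. The members and lists were chosen with earlier results of these data known. No sequence is printed from chromosome 18.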

Additional observations from a re-analysis of the deposited data

Results flagged for a closer look

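In 3 cases the KO effect on a netrin receptor differed between cell classes in the test of the difference itself (edgeR, quasi-likelihood F-test of the interaction, adjusted over all genes), beside 0.196% of all genes called between Cajal-Retzius-like and excitatory neuron-like nuclei and 0.155% between inhibitory and excitatory neuron-like nuclei. The effect on Unc5c in Cajal-Retzius-like nuclei minus that in excitatory neuron-like nuclei was 1.21 on the log2 scale (adjusted p = 2.51e-07). The effect on Unc5c in inhibitory neuron-like nuclei minus that in excitatory neuron-like nuclei was 0.68 (adjusted p = 0.0129), and was no longer called without WT 1, without WT 2, without upper limits on nuclei or in run 1 alone (0.35). The effect on Dscam in Cajal-Retzius-like nuclei minus that in excitatory neuron-like nuclei was -0.86 (adjusted p = 0.00203). The causes were not tested.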

How the results depend on the processing

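KO against WT gave 2 calls among the 9 genes over the classes, and 3 in DESeq2 and without upper limits on nuclei (Dcc in Cajal-Retzius-like nuclei was added), 1 without doublet removal, 4 without the filter on low counts, 1 with only the 2 genotypes compared and 0 in run 1 alone, where Dscam in Cajal-Retzius-like nuclei could not be tested; leaving out each animal gave 1 to 2. Het against WT gave 0, and 1 without the filter. KO against Het gave 0, and 1 in DESeq2, 2 without the filter, 1 without upper limits and 0 to 2 on leaving out animals. For Het against WT and KO against Het, the shares of all genes in these alternatives are not given here. Within named clusters there were 3 calls, and 7 in DESeq2, 12 without the filter, 0 in run 1 (cluster 26, Cajal-Retzius-like, not tested) and 1 to 5 on leaving out animals. For KO against WT, 2.28% of all genes were called in excitatory and 0.148% in Cajal-Retzius-like nuclei. The shares were 2.08 and 0.395% without the filter, 2.09 and 0.644% without upper limits, and 0.994 and 0.138% of genes with any count in DESeq2. They were 2.09 and 0.121% without doublet removal and 1.5 and 0.133% with only the 2 genotypes. Run 1 alone gave 0.0966% in excitatory neuron-like nuclei. Over the named clusters together the share was 0.45%, and 0.429% without the filter, 0.147% in DESeq2, 0.0894% in run 1 and 1.61% with the replicate block. The differences between classes gave 3, and 5 without the filter. In run 1 the 1 that could be tested was lost, leaving 0. Shares of all genes are not given here for these differences in the alternatives, nor for leaving out animals. The causes of these changes were not tested. Run 1 holds fewer nuclei than run 2.

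Unc5c in excitatory neuron-like nuclei kept its direction in all 20 alternatives and lost its call in run 1 alone (-0.77); leaving out animals gave -1.10 to -0.82. Dscam in Cajal-Retzius-like nuclei lost its call with nuclei drawn to the same number in every animal (-0.83; the class is 1 cluster, so this only removed nuclei), without doublet removal (-0.66) and with only the 2 genotypes (-0.78), and ran from -0.96 to -0.57 without single animals. Ntn1 in excitatory intermediate progenitor-like nuclei, at 0.41 and not called, reversed to -0.12 when the 9 genes were used for clustering.

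Same-numbered animals passed r = 0.1 in every pair of KO and WT except in Cajal-Retzius-like (from 0.0464) and microglia and macrophage-like nuclei (from -0.0788); in excitatory neuron-like nuclei only Het and WT fell short (from 0.0973), and all 9 animals correlated best with their own number. With the replicate block KO against WT gave 3 calls (Unc5d was added in excitatory neuron-like nuclei). KO against Het gave 2 calls (Unc5c in excitatory neuron-like and Dscam in Cajal-Retzius-like nuclei), and the named clusters together gave 8 calls. For KO against WT in the excitatory neuron-like class, Unc5c with the block was -0.93 (adjusted p = 2.88e-07 in edgeR). Of all genes, KO against WT with the block called 7.79% in excitatory neuron-like nuclei, 0.741% in Cajal-Retzius-like nuclei and 1.61% over the named clusters. The share for KO against Het with the block is not given here. In Cajal-Retzius-like nuclei, where not every pair passed although all 9 were above 0 and 6 animals correlated best with their own number, Dscam was -0.77 (adjusted p = 0.00302) and its difference from Het was called (-0.60, adjusted p = 0.0435). The block changed no other call of the 9 genes in a class. In Cajal-Retzius-like nuclei, 150 to 320 per animal, Dscam rested on 77.0 UMIs in 1 KO animal.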
